A study of Rattus norvegicus with 24 samples.

Results

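The spleens of 3 rats labelled SAM-exposed were compared with the spleens of 3 sham-exposed rats by sequencing their messenger RNA, which left 14530 of the 32883 genes in the count table for testing after genes with too few counts were removed. All animals were Sprague-Dawley rats, an outbred laboratory stock, aged 7 months. The 6 spleen libraries are part of a set of 24 that also covers liver, brain and thymus, with 3 SAM and 3 Sham libraries per organ. The series title names polychlorinated biphenyls (PCBs) as the exposure, whereas the treatment label reads SAM; the exposed group is called SAM here. The Sham group received the sham exposure of the same label. The labels give no congener, dose, route or duration. The spleen libraries carry the numbers 1, 3 and 5 (SAM) and 14, 15 and 17 (Sham), and nothing in the labels says outright that each number is a separate animal, so the p-values measure the spread between these libraries, which may be in part technical.

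The spleen filters blood and hosts immune responses. Its red pulp holds macrophages that take up old red cells and recycle their iron, and in rodents it also makes red cells throughout life. Its white pulp holds T cell zones around arterioles, B cell follicles and a marginal zone that samples antigen from blood. PCBs are persistent industrial chlorinated compounds. Those with a flat, dioxin-like shape bind the aryl hydrocarbon receptor (AhR), which switches on Cyp1a1, Cyp1a2, Cyp1b1, Ahrr and Tiparp, while bulkier ones act mainly through the nuclear receptors CAR and PXR in liver. Lymphoid organs have long been studied as targets of such compounds.

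The libraries held 13.3 to 20.1 M (mega) counts, and 3.89% to 5.96% of these came from genes encoded in mitochondrial DNA. Markers fitted the label of spleen. Cr2, the complement receptor of B cells and follicular dendritic cells, stood at 939 to 1420 raw CPM (counts scaled to a library total of 1 M) against 29.4 to 55.9 in thymus, and Tlx1, a transcription factor needed to form the spleen, stood at 28.4 to 48.3 and at no more than 0.193 in the other organs. Alb, the liver's albumin, reached no more than 1.02 CPM. Libraries of 1 group were not closer to each other than to the other group on the first principal component (34.9% of the variance), where SAM 3 and Sham 14 lay at one end (23.4 and 21.5) and SAM 1 and Sham 17 at the other (-18.8 and -23.2).

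No gene was called between SAM and Sham spleens at an adjusted p of 0.05 with edgeR's quasi-likelihood test and Benjamini-Hochberg adjustment, which is 0% of the 14530 tested. The lowest adjusted p was 0.854. At an unadjusted p under 0.05, 597 genes (4.11%) passed, 323 higher in SAM (2.22%) and 274 lower (1.89%). Every SAM library lay above every Sham library for 650 genes (4.47%) and below for 689 (4.74%), so that 9.22% of genes did not overlap in either direction. The median log2 fold change over all genes tested was 0.00, with 7388 genes higher in SAM and 7142 lower. DESeq2, a second count model with another estimate of the spread, called 7 genes, 1 higher and 6 lower in SAM, while limma-voom called 0. The direction words "higher" and "lower" below therefore describe these 6 libraries; apart from the DESeq2 calls, no gene passed an adjusted test with all 6 libraries. Without SAM 5, edgeR called 1 gene, Hap1 (a huntingtin-associated trafficking protein, -1.63 ± 0.11, SE, adjusted p = 0.026), which stood at 36.1 CPM in SAM 5 itself and at 12.7 and 13.2 in SAM 1 and SAM 3. Without Sham 17 it called 1 gene, known by a clone name only.

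The gene with the lowest p was P2rx4, an ATP-gated cation channel found on macrophages and lymphocytes. P2rx4 measured 42.5, 36.3 and 40.2 CPM (TMM-scaled, as are all CPM values from here on unless stated) in SAM 1, 3 and 5 and 63.1, 75.7 and 63.1 CPM in Sham 14, 15 and 17. The groups did not overlap, and the highest SAM library was well below the lowest Sham library. The log2 fold change was -0.76 ± 0.10 (SE), with an unadjusted p of 5.88e-05 and an adjusted p of 0.854 by edgeR. DESeq2 called it (adjusted p = 6e-06). Leaving out 1 library at a time, the log2 fold change ran from -0.82 to -0.67. The same direction was measured in the thymus, where P2rx4 stood at 22.6, 19.7 and 24.9 CPM in SAM and 31.5, 39.5 and 37.4 CPM in Sham (-0.69 ± 0.12, adjusted p = 0.289 by edgeR within thymus). In liver and brain P2rx4 overlapped between groups (-0.11 ± 0.17 and -0.26 ± 0.20). Spleen and thymus libraries carry the same 6 numbers, so if equal numbers mean equal animals these organs are not independent measurements.

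Nlrc5, the transactivator of MHC class I genes, had the second lowest p of the named genes. It measured 120, 116 and 113 CPM in SAM 1, 3 and 5 and 82.4, 87.7 and 90.4 CPM in Sham 14, 15 and 17. All 3 SAM libraries were above all Sham libraries, by a margin larger than the range within either group. The log2 fold change was 0.42 ± 0.06 (SE; edgeR adjusted p = 0.94, DESeq2 adjusted p = 0.00416). In the other organs the Nlrc5 groups overlapped, at 0.01 ± 0.18 in thymus, -0.22 ± 0.38 in liver and 0.15 ± 0.31 in brain.

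DESeq2 also called Mmp12, lower in SAM. Mmp12, the elastase secreted by macrophages, stood at 23.2, 22.7 and 18.3 CPM in SAM and at 33.1, 32.6 and 30.5 CPM in Sham (-0.58 ± 0.11, edgeR adjusted p = 0.967, DESeq2 adjusted p = 0.0379). Its groups did not overlap, and SAM 5 was the lowest library. Of the other genes DESeq2 called, 3 have clone names or no symbol.

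**Figure D1:**
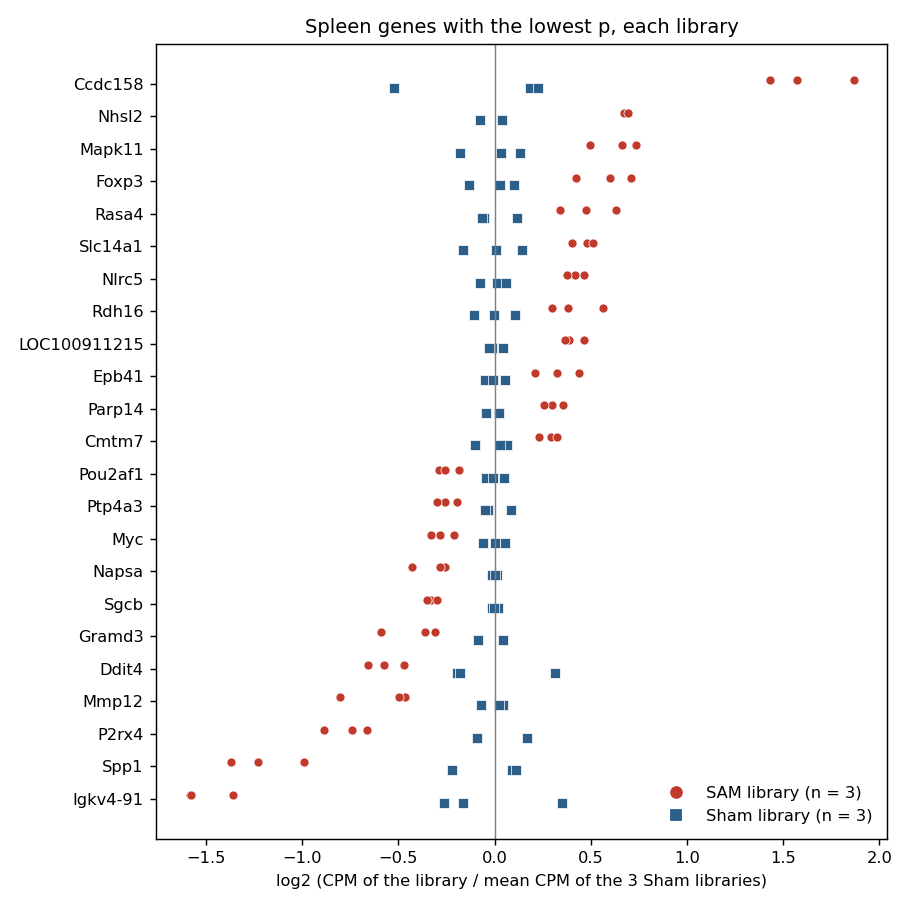
Spleen genes with the lowest p (named genes averaging 1 CPM or more), higher or lower in SAM. The x axis is the log2 ratio of each library's CPM to the mean of the 3 Sham libraries, circles are SAM and squares Sham libraries, and no gene shown overlaps between groups, which the choice by low p makes likely.

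Among the 12 genes with the lowest p on the higher side were several of immune cells and red cells. Foxp3, the defining transcription factor of regulatory T cells, stood at 14.7, 13.6 and 12.1 CPM in SAM and at 9.17, 8.20 and 9.65 CPM in Sham (0.59 ± 0.13). Parp14, an ADP-ribosyltransferase of the interferon response, stood at 223, 214 and 208 CPM in SAM against 169, 177 and 177 CPM in Sham (0.30 ± 0.06). For both genes the lowest SAM library was above the highest Sham library. Epb41, the red cell membrane protein 4.1, was higher by 0.33 ± 0.07 and Slc14a1, the urea transporter of red cells, by 0.46 ± 0.10. For these genes SAM 1 (180 and 25.4 CPM) lay above Sham 14 (150 and 17.2 CPM). The mean log2 CPM of the red cell list below ran the other way (4.92 in SAM 1, 6.10 in Sham 14). The remaining 8 were Nlrc5 (above), Ccdc158 (1.66 ± 0.29), Nhsl2 (0.68 ± 0.15), the p38 kinase Mapk11 (0.63 ± 0.14), the Ras GTPase-activating protein Rasa4 (0.49 ± 0.10), the retinol dehydrogenase Rdh16 (0.42 ± 0.10), LOC100911215 (0.41 ± 0.09) and Cmtm7 (0.28 ± 0.07). Ccdc158 rested on a mean of less than 1 CPM in Sham, 0.485 to 0.817.

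The lower side, besides P2rx4 and Mmp12, held genes of B cells and of growth control. Pou2af1, a coactivator of octamer factors at immunoglobulin genes, stood at 317, 295 and 302 CPM in SAM and at 350, 358 and 374 CPM in Sham (-0.24 ± 0.06). Myc, the growth-promoting transcription factor, stood at 105, 108 and 114 CPM in SAM and at 132, 137 and 127 CPM in Sham (-0.28 ± 0.06). Both differences were small, and in both genes the groups did not overlap. Ddit4, an inhibitor of mTOR signalling, was lower by 0.57 ± 0.14 on the log2 scale. Also lower were the kappa light chain segment Igkv4-91 (-1.50 ± 0.27), the secreted phosphoprotein Spp1 (-1.17 ± 0.23), Gramd3 (-0.41 ± 0.10), the sarcoglycan Sgcb (-0.33 ± 0.08), the aspartic protease Napsa (-0.32 ± 0.06) and the phosphatase Ptp4a3 (-0.25 ± 0.06). Igkv4-91 and Spp1 stood below 3 CPM in every library, and Igkv4-91 belongs to a family of near-identical segments whose reads the counting may split. The edgeR adjusted p was 0.967 for each of these genes except P2rx4 and Nlrc5.

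**Figure D2:**
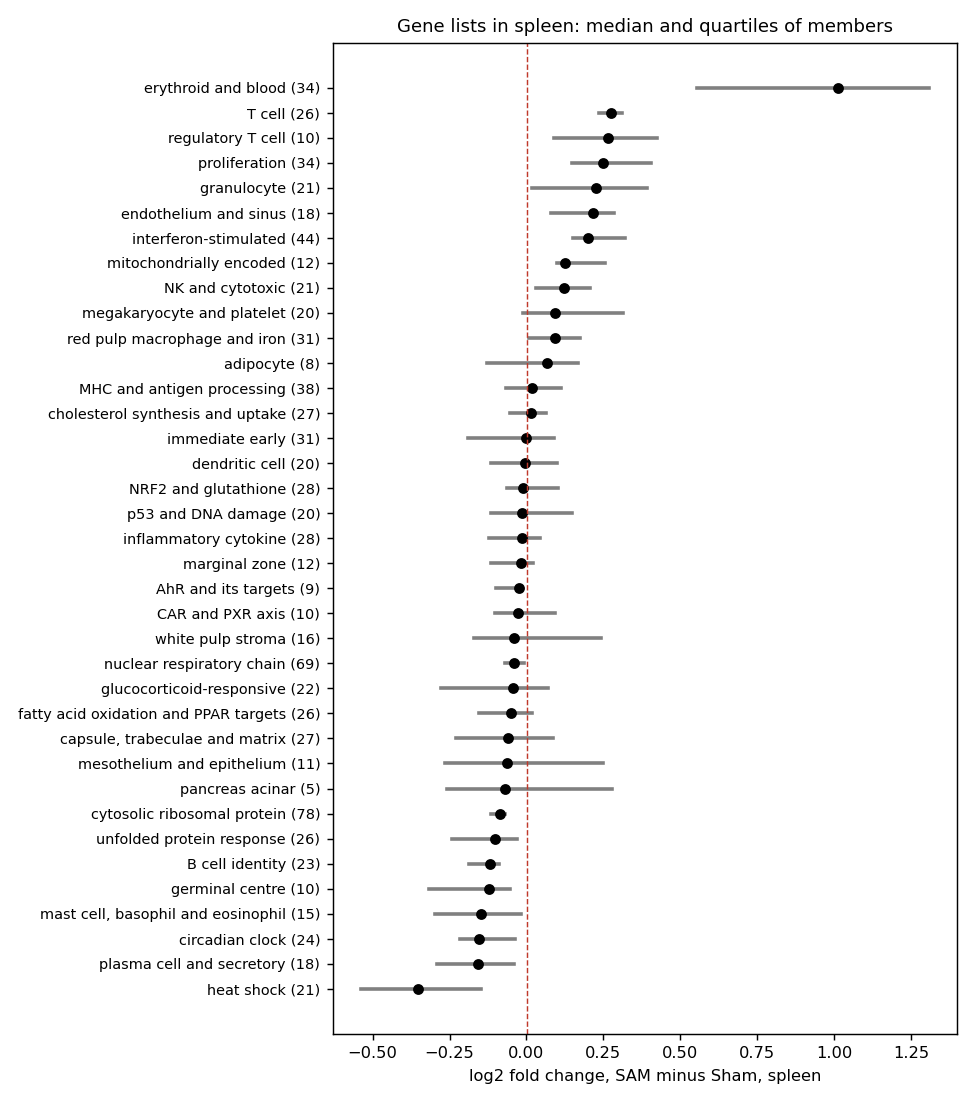
Median (point) and quartiles (bar) of the log2 fold change, SAM minus Sham, over the tested members of each gene list in spleen, with the number of members in brackets; the dashed line is the median of all 14530 genes. The erythroid list lies farthest to the right with a median of 1.01 and the heat shock list farthest to the left with -0.35.

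T cell genes were higher in SAM with small differences. Of 26 T cell members tested, 25 were higher in SAM and 14 passed an unadjusted p of 0.05, all higher, beside 2.22% of all genes; the median was 0.27 against 0.00 over all genes. Every SAM library lay above every Sham library for 7 of the 26, beside 4.47% of all genes. Il7r, the interleukin 7 receptor, stood at 64.0, 53.4 and 52.8 CPM in SAM and at 40.5, 44.9 and 47.7 CPM in Sham (0.35 ± 0.10). Trbc2, a T cell receptor constant segment, stood at 217, 186 and 219 CPM in SAM and at 148, 172 and 188 CPM in Sham (0.29 ± 0.10). Its Sham 17 library lay above the lowest SAM library, so the groups overlapped. The co-receptors Cd4 and Cd8a differed by 0.30 ± 0.12 and 0.27 ± 0.17, and the CD3 chain Cd3e by 0.23 ± 0.10.

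The T cell score, the mean log2 CPM of the 26 members, was 6.34, 6.14 and 6.29 in SAM 1, 3 and 5 and 5.76, 6.02 and 6.17 in Sham 14, 15 and 17. SAM 3 lay below Sham 17, and Sham 14 was the lowest library. The count of 14 depended on single libraries. It was 1 without SAM 1, 1 without SAM 5, 5 without Sham 14, 5 without Sham 15, 16 without SAM 3 and 20 without Sham 17, while the median ran from 0.17 without Sham 14 to 0.37 without Sham 17. In bulk tissue, fewer cells of a type and less RNA of that type per cell cannot be told apart, here and for every cell type below.

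Regulatory T cell genes were higher in SAM for 9 of 10 members, with a median of 0.26. Besides Foxp3, the interleukin 2 receptor alpha chain Il2ra (22.3, 19.2 and 17.6 CPM in SAM, 15.05, 17.3 and 16.8 CPM in Sham, 0.27 ± 0.11) and the co-stimulatory receptor Tnfrsf4 (6.91, 6.18 and 6.94 CPM in SAM, 5.41, 5.29 and 4.08 CPM in Sham, 0.43 ± 0.16) passed an unadjusted p of 0.05. These 3 of 10, beside 2.22% of all genes, were also the members whose groups did not overlap, beside 4.47% of all genes. The summed level of the list was 72.9 to 87.2 CPM in SAM and 65.0 to 67.4 CPM in Sham. Summed levels separated the groups for other lists too: granulocyte genes (higher), and clock, inflammatory cytokine and immunoglobulin constant genes (lower). The regulatory T cell score, which weights members equally, overlapped, at 2.69, 2.56 and 2.29 in SAM 1, 3 and 5 and 2.40, 2.08 and 2.33 in Sham 14, 15 and 17. The count of 3 was 1 without SAM 1 or without Sham 17. In thymus, Foxp3 overlapped between groups (0.36 ± 0.25). Genes of natural killer and cytotoxic cells were higher for 18 of 21 members (median 0.12). The activating receptor Klrk1 (0.36 ± 0.15) was the only member at an unadjusted p under 0.05, 1 of 21 beside 2.22% of all genes. Perforin, Prf1, stood at 0.12 ± 0.09. The list's median was 0.04 without Sham 15 and 0.07 without SAM 1, each with 13 higher and 8 lower, and 0.21 without SAM 3.

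B cell genes were lower in SAM, again by little. Of 23 tested members 20 were lower, 6 of them at an unadjusted p under 0.05 beside 1.89% of all genes, and the median was -0.12. Blk, a B cell tyrosine kinase, stood at 152, 167 and 163 CPM in SAM and at 186, 183 and 193 CPM in Sham (-0.22 ± 0.06). Blnk, the adaptor of B cell receptor signalling, stood at 196, 195 and 207 CPM in SAM and at 221, 230 and 249 CPM in Sham (-0.22 ± 0.07). Neither overlapped between groups, whereas Ms4a1, the CD20 gene, did (-0.23 ± 0.09). Cd79a, a signalling chain of the B cell receptor, stood at -0.15 ± 0.10 and did not pass. The B cell score was 7.59, 7.62 and 7.80 in SAM 1, 3 and 5 and 7.62, 7.86 and 7.86 in Sham 14, 15 and 17, so that Sham 14 lay with the SAM libraries and SAM 5 with the Sham libraries. The count of 6 was 3 without SAM 1, 3 without Sham 15 and 9 without SAM 5, and it was 0 in a single fit over all 24 libraries. The median was -0.08 without SAM 1, -0.20 without Sham 14 and -0.22 without SAM 5.

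Of 18 plasma cell genes 15 were lower in SAM (median -0.16) and 0 passed an unadjusted p of 0.05. Without Sham 14 the median was -0.01, with 9 higher and 9 lower. Ighm, the IgM heavy chain and among the most abundant transcripts of the organ, stood at 12443, 11422 and 7761 CPM in SAM and at 18730, 13325 and 13128 CPM in Sham. Every SAM library was below every Sham library, although SAM 1 and Sham 17 were close (-0.51 ± 0.21, unadjusted p = 0.0405, adjusted p = 0.967 by edgeR). Jchain, which joins IgM into polymers, was lower by 0.59 ± 0.27 on the log2 scale and Mzb1, a chaperone of IgM secretion, by 0.35 ± 0.19, with Sham 14 the highest library in both. Without Sham 14 the log2 fold changes were -0.33 ± 0.20 for Ighm, which then missed an unadjusted p of 0.05, -0.30 ± 0.24 for Jchain and -0.09 ± 0.12 for Mzb1. The only other constant region entry tested, Ighg, named after its values were seen, lay in the other direction (8.10, 7.41 and 10.2 CPM in SAM, 11.0, 4.03 and 1.93 CPM in Sham, 0.60 ± 0.51). The median of these 2 entries was 0.04, and 0.58 without Sham 14, where 1 was higher and 0 lower at an unadjusted p under 0.05. Of 10 germinal centre genes 9 were lower (median -0.12), and the median was 0.16 without Sham 14.

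S1pr3, a sphingosine phosphate receptor of marginal zone B cells, stood at 116, 124 and 109 CPM in SAM and at 135, 140 and 144 CPM in Sham (-0.26 ± 0.07). Of 12 marginal zone genes only S1pr3 passed an unadjusted p of 0.05, beside 1.89% of all genes lower. The list's median was -0.02. Among 20 dendritic cell genes (median -0.01) the integrin Itgax was higher (50.9, 59.4 and 58.7 CPM in SAM, 44.2, 44.5 and 47.0 CPM in Sham, 0.32 ± 0.08), and the maturation marker Cd83 (-0.24 ± 0.07) and the plasmacytoid factor Tcf4 (-0.22 ± 0.07) were lower. The groups did not overlap for these 3 genes, with 1 of 20 members above and 2 below, beside 4.47% and 4.74% of all genes.

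**Figure D3:**
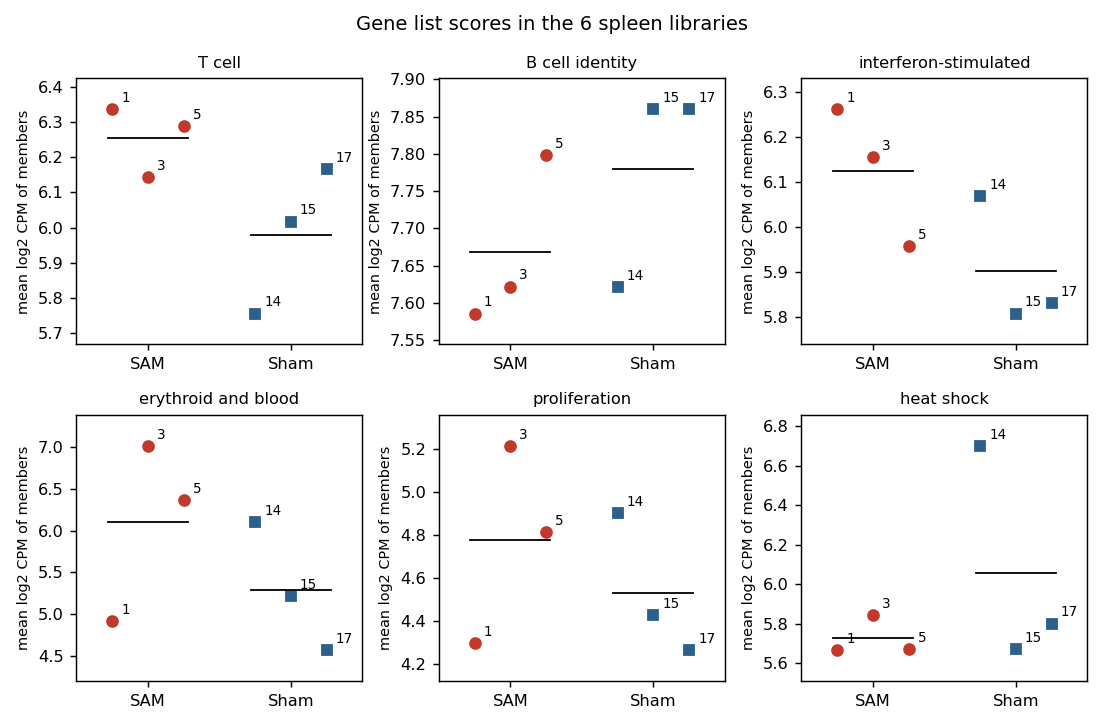
Mean log2 CPM of the tested members of 6 gene lists in each spleen library, numbered as in the labels, with a line at the mean of each group of 3. The groups overlap in every panel, and Sham 14 is the lowest Sham library for T and B cell genes and the highest for the other 4 lists.

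Interferon-stimulated genes, which cells switch on through STAT and IRF factors when they sense interferon, were higher in SAM for 42 of 44 members, with a median of 0.20. At an unadjusted p under 0.05, 9 were higher and 1 lower, beside 2.22% and 1.89% of all genes. Rsad2, which encodes the antiviral enzyme viperin, stood at 150, 238 and 154 CPM in SAM and at 131, 85.2 and 95.1 CPM in Sham (0.80 ± 0.21). Dtx3l, a ubiquitin ligase of the interferon response, stood at 44.8, 37.6 and 38.8 CPM in SAM and at 32.4, 32.2 and 34.4 CPM in Sham (0.29 ± 0.09). With Parp14 these had the lowest p of the list, and none of the 3 overlapped between groups. The commonly used reporters overlapped, with Mx1 at 0.27 ± 0.14, Isg15 at 0.32 ± 0.23 and the interferon master regulator Irf7 at 0.33 ± 0.30. Irf7 stood at 545, 361 and 305 CPM in SAM and at 474, 268 and 222 CPM in Sham, so Sham 14 lay above SAM 3 and SAM 5.

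The interferon score was 6.26, 6.16 and 5.96 in SAM 1, 3 and 5 and 6.07, 5.81 and 5.83 in Sham 14, 15 and 17. The 9 members higher at an unadjusted p under 0.05 became 5 when SAM 1, SAM 3, Sham 15 or Sham 17 was left out, 17 without SAM 5 and 22 without Sham 14, and were 3 in a single fit over all 24 libraries. In thymus the scores of this list did not separate the groups, at 4.74 to 4.98 in SAM and 4.77 to 5.04 in Sham. For Parp14 the thymus log2 fold change was 0.02 ± 0.07.

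Many interferon-stimulated genes carry a control element bound by STAT and IRF complexes. The 250 bases before the annotated start were searched for this interferon-stimulated response element, spelled GAAA, then any 2 bases, then GAAA, on both strands. It was present in 21 of the 34 interferon members with an entry in the RefSeq promoter table (GRCr8 build), which is 61.8%, and in 3.61% of all 27457 promoters there. Such a match describes the letters only, and no match says nothing about a factor. The promoters of Parp14 (chr11:78407884-78408133 on the plus strand) and Rsad2 (chr6:48788121-48788370 on the minus strand) are shown as the members with the lowest p that hold the element, 5′ to 3′ along the gene, with the element in capitals. In Rsad2 the element lies on the other strand, so its reverse complement is in capitals. The first base in capitals lies 76 bases before the start in Parp14 and 147 bases before it in Rsad2. Nlrc5 had no entry.
Parp14: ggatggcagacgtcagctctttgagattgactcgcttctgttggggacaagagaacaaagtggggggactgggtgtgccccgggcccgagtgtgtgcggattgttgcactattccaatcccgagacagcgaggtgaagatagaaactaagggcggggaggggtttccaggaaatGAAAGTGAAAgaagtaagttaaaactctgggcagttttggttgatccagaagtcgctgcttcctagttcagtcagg
Rsad2: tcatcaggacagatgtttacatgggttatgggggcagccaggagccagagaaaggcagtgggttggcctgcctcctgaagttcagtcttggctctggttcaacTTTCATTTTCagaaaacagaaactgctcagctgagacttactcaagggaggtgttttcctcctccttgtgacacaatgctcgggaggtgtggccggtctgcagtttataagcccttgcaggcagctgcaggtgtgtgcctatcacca

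Antigen presentation genes as a list lay near the median of all genes. The median of 38 members was 0.02, with 23 higher and 15 lower. Tap1, a subunit of the peptide transporter that feeds MHC class I, stood at 192, 182 and 191 CPM in SAM and at 167, 164 and 163 CPM in Sham (0.20 ± 0.05), without overlap. 1 of the gene entries named RT1-DMb, a class II peptide loader, was lower (9.59, 9.43 and 12.6 CPM in SAM, 12.5, 13.5 and 14.03 CPM in Sham, -0.34 ± 0.14), and reads of RT1 copies may be split by the counting. Including Nlrc5, 3 of 38 members were higher and 1 lower at an unadjusted p under 0.05, beside 2.22% and 1.89% of all genes, so the lower side was near the background.

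Genes of the red cell lineage had the largest median of any list, 1.01, and were higher in SAM for 34 of 34 members. Only 1 of these passed an unadjusted p of 0.05, beside 2.22% of all genes, and 0 separated the groups, beside 4.47%. Slc4a1, the anion exchanger of the red cell membrane, stood at 101, 653 and 364 CPM in SAM and at 222, 129 and 66.1 CPM in Sham (1.42 ± 0.64). Nfe2, a transcription factor of red cell and platelet precursors, stood at 15.1, 29.0 and 21.3 CPM in SAM and at 17.7, 12.8 and 11.4 CPM in Sham (0.65 ± 0.25, unadjusted p = 0.0323). Both were highest in SAM 3, while SAM 1 was within the Sham range. Alas2, the first enzyme of heme synthesis in red cells, stood at 530, 668 and 570 CPM in SAM and at 710, 352 and 390 CPM in Sham (0.28 ± 0.25).

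The erythroid score was 4.92, 7.02 and 6.36 in SAM 1, 3 and 5 and 6.10, 5.21 and 4.56 in Sham 14, 15 and 17, a spread within each group larger than the difference between groups. The median of 1.01 was 0.38 without SAM 3, 0.84 without both SAM 3 and Sham 14, and 1.55 without Sham 14. The count at an unadjusted p under 0.05 was 26 without SAM 1, 23 without Sham 14 and 0 without SAM 3, SAM 5, Sham 15 or Sham 17. It was 20 of 34 in a single fit over all 24 libraries. 

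Cell division genes ranked the libraries much as the erythroid list did. Of 34 proliferation genes 33 were higher in SAM with a median of 0.25, and 0 passed an unadjusted p of 0.05. Mki67, the Ki-67 gene, stood at 44.3, 169 and 106 CPM in SAM and at 95.1, 57.3 and 40.1 CPM in Sham (0.73 ± 0.47), and the topoisomerase Top2a differed by 0.30 ± 0.28. The proliferation score was 4.30, 5.21 and 4.81 in SAM and 4.90, 4.43 and 4.26 in Sham, again highest in SAM 3, and in the order of the libraries on the first principal component. The median was 0.04 without SAM 3 and 0.46 without Sham 14.

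Red pulp macrophage and iron genes had a median of 0.09 over 31 members, 25 of them higher. Spic, the transcription factor that sets up red pulp macrophages, stood at 111, 64.5 and 65.1 CPM in SAM and at 96.8, 83.3 and 76.8 CPM in Sham (-0.09 ± 0.21). The hemoglobin scavenger receptor Cd163 (0.17 ± 0.25), the iron exporter Slc40a1 (0.18 ± 0.21) and the heme oxygenase Hmox1 (0.01 ± 0.20) overlapped widely between groups as well. Bach1, the heme-sensing repressor of Hmox1, was the only member at an unadjusted p under 0.05 (18.3, 21.4 and 17.8 CPM in SAM, 15.8, 15.2 and 17.1 CPM in Sham, 0.26 ± 0.11). Its groups did not overlap. That is 1 of 31 members, near the background of 2.22% of all genes higher at that p and 4.47% above without overlap. The list's median ran from -0.01 without Sham 17 to 0.24 without Sham 14.

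Heat shock genes, the chaperones that cells make when proteins unfold, had the lowest median of any list, -0.35, with 20 of 21 members lower in SAM. Hsph1, a large chaperone of the heat shock family, stood at 79.7, 106 and 84.5 CPM in SAM and at 344, 82.5 and 96.2 CPM in Sham (-0.95 ± 0.50). Dnajb1, a co-chaperone, stood at 76.3, 76.9 and 72.9 CPM in SAM and at 153, 74.2 and 81.3 CPM in Sham (-0.45 ± 0.25). In both genes Sham 14 alone was high and the other 2 Sham libraries lay at the SAM level or near it. Every SAM library lay below every Sham library for 4 of the 21 members, beside 4.74% of all genes. At an unadjusted p under 0.05, 0 members passed. The heat shock score was 6.70 in Sham 14 and 5.67 to 5.84 in the other 5 libraries. Without Sham 14 the median was -0.04, with 13 members lower and 8 higher, and Hsph1 stood at 0.02.

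The thymus library numbered Sham 14 stood out in the same way. Its heat shock score was 6.74 against 6.05 to 6.10 in the other 5 thymus libraries, and its Hsph1 level was 347 CPM against 94.8 to 115 CPM. The number 14 is thus high for heat shock genes in both organs, and whether the libraries come from 1 animal is not stated in the labels. In spleen Sham 14 was also the lowest library on the T cell score and the highest on the matrix, glucocorticoid and unfolded protein scores. Values without Sham 14 are given beside the main lists.

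Among glucocorticoid-responsive genes the 3 members with an unadjusted p under 0.05 were lower in SAM, 3 of 22 beside 1.89% of all genes. Tsc22d3, the glucocorticoid-induced leucine zipper, stood at 84.6, 97.8 and 102 CPM in SAM and at 167, 106 and 147 CPM in Sham (-0.56 ± 0.16). Pdk4, a brake on glucose oxidation, stood at 2.74, 2.34 and 2.02 CPM in SAM and at 6.47, 3.30 and 4.53 CPM in Sham (-0.996 ± 0.278). Ddit4 stood at 134, 153 and 142 CPM in SAM and at 263, 185 and 187 CPM in Sham. All 3 separated the groups, 3 of 22 beside 4.74% of all genes, and Sham 14 was the highest library for each. The list as a whole showed little shift, with a median of -0.05 over all 22 members, these 3 included, and 9 higher and 13 lower. Fkbp5, a sensitive steroid receptor target, was lower with overlap (-0.29 ± 0.17). Without Sham 14 the median was 0.01, and the same number of members, 3, was lower at an unadjusted p under 0.05. The log2 fold changes were then -0.41 for Tsc22d3, -0.38 for Ddit4 and -0.71 for Pdk4. In thymus Tsc22d3 (-0.53 ± 0.21) and Ddit4 (-0.42 ± 0.15) were lower as well, with overlapping groups.

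Clock genes keep daily time through a loop in which the activator Arntl (BMAL1) drives Per and Cry repressors and the output factors Dbp and Tef. Of 24 members 19 were lower in SAM (median -0.15), 5 at an unadjusted p under 0.05 beside 1.89% of all genes, and every SAM library lay below every Sham library for 7, beside 4.74% of all genes. Tef stood at 67.5, 78.6 and 72.9 CPM in SAM and at 89.3, 86.4 and 86.0 CPM in Sham (-0.26 ± 0.07). Per2 stood at 22.0, 33.4 and 31.2 CPM in SAM and at 36.5, 35.1 and 44.1 CPM in Sham (-0.41 ± 0.16), and Dbp at 49.9, 76.2 and 83.7 CPM against 95.5, 95.8 and 86.2 CPM (-0.40 ± 0.17). For these 3 genes the groups did not overlap, with SAM 1 the lowest library each time. The repressor Bhlhe40 was lower by 0.19 ± 0.07 on the log2 scale. Arntl, whose level runs opposite to Per2 and Dbp through the day, stood at 0.18 ± 0.12, and the repressor Nr1d1 at -0.36 ± 0.16, both with overlap.

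The count of 5 was 3 without SAM 1, SAM 5, Sham 15 or Sham 17 and 7 without SAM 3, and the median ran from -0.18 to -0.10. It was 0 in a single fit over all 24 libraries. The labels give no time of day for tissue collection, and its part in these values was not tested. In thymus Tef was lower in SAM without overlap (27.4, 25.6 and 29.7 CPM against 37.5, 47.4 and 37.1 CPM, -0.56 ± 0.12, edgeR adjusted p = 0.407 within thymus), and Per2 likewise (-0.44 ± 0.16). In brain and liver Tef overlapped between groups (-0.26 ± 0.13 and -0.54 ± 0.27).

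The E-box CACGTG, to which the clock activator binds, was found in the same 250-base window of 5 of 18 clock members with a promoter entry (27.8%) and of 6.18% of all promoters, on either strand, since the motif reads the same on both. Tef (chr7:115206577-115206826 on the plus strand) and Bhlhe40 (chr4:143174200-143174449 on the plus strand) are the members among those with the lowest p that hold it, and their promoters follow with the E-box in capitals, 198 and 220 bases before the start. Per2 held no E-box there and 1 match to the D-box TTANGTAA, the element bound by Tef and Dbp, which occurs in 2.19% of all promoters.
Tef: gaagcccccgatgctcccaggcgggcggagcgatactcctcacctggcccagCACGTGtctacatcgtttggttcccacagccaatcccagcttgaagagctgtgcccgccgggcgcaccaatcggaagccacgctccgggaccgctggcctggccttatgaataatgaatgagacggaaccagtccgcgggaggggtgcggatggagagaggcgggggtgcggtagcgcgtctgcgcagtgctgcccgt
Bhlhe40: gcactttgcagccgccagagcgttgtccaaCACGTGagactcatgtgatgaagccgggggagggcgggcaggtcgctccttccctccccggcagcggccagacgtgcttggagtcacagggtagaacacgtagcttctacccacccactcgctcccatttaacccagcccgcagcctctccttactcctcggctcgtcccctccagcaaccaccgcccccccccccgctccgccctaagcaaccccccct

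Immediate early genes, which respond to stimuli within minutes, had a median of -0.00 over 31 members, with 5 lower and 1 higher at an unadjusted p under 0.05, beside 1.89% and 2.22% of all genes. Fos stood at 8.62, 17.8 and 18.3 CPM in SAM and at 28.8, 22.0 and 26.4 CPM in Sham (-0.78 ± 0.26). Egr1 stood at 68.9, 74.3 and 101 CPM in SAM and at 110, 109 and 101 CPM in Sham (-0.39 ± 0.13). With Myc, these 2 were lower in all SAM libraries than in any Sham library. For Egr1, SAM 5 (100.54 CPM) and Sham 17 (100.97 CPM) were close. Every SAM library lay below every Sham library for 4 of the 31 members, beside 4.74% of all genes. The count of 5 was 2 without SAM 1 or SAM 3, 3 without Sham 15 and 8 without Sham 17.

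No tested gene of the AhR list passed an unadjusted p of 0.05, and 8 of 9 overlapped between groups, where 9.22% of all genes did not. The exception was Ahr itself, named after its values were seen, at 28.5, 29.8 and 27.8 CPM in SAM and 32.1, 30.1 and 30.1 CPM in Sham (-0.10 ± 0.07). Cyp1a1, Cyp1a2, Ahrr and Aldh1a7 had at most 5 counts in any spleen library and were not tested. At these depths 3 counts, the upper limit that a count of 0 allows, equal 0.149 to 0.225 raw CPM, so a difference at that level was not detectable. Cyp1b1, a cytochrome P450 that AhR also controls, stood at 96.2, 94.2 and 88.4 CPM in SAM and at 89.8, 86.3 and 86.6 CPM in Sham (0.09 ± 0.06), and SAM 5 lay below Sham 14. Tiparp, the AhR target that modifies the receptor in turn, stood at -0.02 ± 0.09 and the quinone reductase Nqo1 at -0.25 ± 0.23. Of 9 tested members of the AhR list 2 were higher and 7 lower (median -0.02), and the 10 members of the CAR and PXR list had a median of -0.03.

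Oxidative stress genes under NRF2 had a median of -0.01 over 28 members. Catalase, Cat, stood at 254, 272 and 237 CPM in SAM and at 219, 214 and 187 CPM in Sham (0.30 ± 0.08), without overlap, and the cystine transporter Slc7a11 was lower by 0.38 ± 0.15 on the log2 scale with overlap. Catalase is abundant in red cells, whose genes were also higher in SAM but with overlapping groups. The part of red cells in the catalase value was not tested. In lipid metabolism, the 27 cholesterol genes had a median of 0.02. Of 26 genes of fatty acid oxidation 18 were lower (median -0.05). Pdk4 and the lipase inhibitor Angptl4 (-0.40 ± 0.16) were lower at an unadjusted p under 0.05, 2 of 26 beside 1.89% of all genes. Genes of p53 and DNA damage had a median of -0.01 over 20 members, and 21 of 26 unfolded protein response genes were lower (median -0.10, 0.01 without Sham 14).

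Inflammatory cytokine genes had a median of -0.01 over 28 members. The monocyte chemokine Ccl2 was higher in SAM at a low level (4.28, 3.68 and 4.34 CPM in SAM, 3.30, 1.89 and 2.97 CPM in Sham, 0.61 ± 0.24). The NF-kappa-B inhibitors Nfkbia (-0.21 ± 0.07) and Nfkbie (-0.16 ± 0.07) were lower. All 3 separated the groups. Of the 28 members, 1 lay above and 3 below without overlap, beside 4.47% and 4.74% of all genes. Granulocyte genes had a median of 0.22 over 21 members with 17 higher, which was 0.48 without Sham 14 and -0.01 without Sham 17. Their members with the lowest p were the gelatinase Mmp9 (0.53 ± 0.19), the protease inhibitor Slpi (0.22 ± 0.09) and Chi3l1 (0.40 ± 0.16).

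Among the structural and blood cell lists, endothelial and sinus genes had a median of 0.22 over 18 members (cadherin Cdh5 at 0.27 ± 0.11). With all 6 libraries 1 of the 18 passed an unadjusted p of 0.05, higher in SAM, beside 2.22% of all genes. Without SAM 5, 9 members passed, beside 2.51% of all genes higher and 1.7% lower. Platelet and megakaryocyte genes had a median of 0.09 over 20, with 13 higher and 7 lower. The integrin Itgb3 (0.37 ± 0.12) was the only member at an unadjusted p under 0.05, beside 2.22% of all genes higher. Gp9 lay in the other direction (-0.35 ± 0.16), also without overlap. Without overlap, 3 members lay above and 2 below, beside 4.47% and 4.74% of all genes. Matrix genes had a median of -0.06 over 27, with 11 higher and 16 lower. Fibronectin, Fn1 (0.23 ± 0.10), was the only member at an unadjusted p under 0.05, beside 2.22% of all genes higher. The matrix median was 0.14 without Sham 14, 0.02 without SAM 5, -0.17 without SAM 3 and -0.18 without Sham 17. White pulp stroma had a median of -0.04 over 16, and mast cell, basophil and eosinophil genes -0.15 over 15, of which 13 were lower. The lists for tissue that can come along with a spleen overlapped between groups. The summed pancreas acinar list stood at 17.5 to 23.5 CPM in SAM and 17.2 to 22.2 CPM in Sham, the adipocyte list at 495 to 747 and 479 to 692 CPM, and the mesothelium list at 177 to 274 and 165 to 242 CPM.

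Genes of basic cell function differed by little. Of 78 ribosomal protein entries 77 were lower in SAM with a median of -0.09. Only 1 of the entries named Rpl21 passed an unadjusted p of 0.05, lower in SAM, beside 1.89% of all genes. Without SAM 5, 13 of the list passed, beside 2.51% of all genes higher and 1.7% lower. Of 69 nuclear respiratory chain entries 55 were lower (median -0.04). The 12 mitochondrially encoded genes were all higher (median 0.13), yet 9 of them were lower and the median was -0.06 without SAM 1, the library with the highest mitochondrial share.

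**Figure D4:**
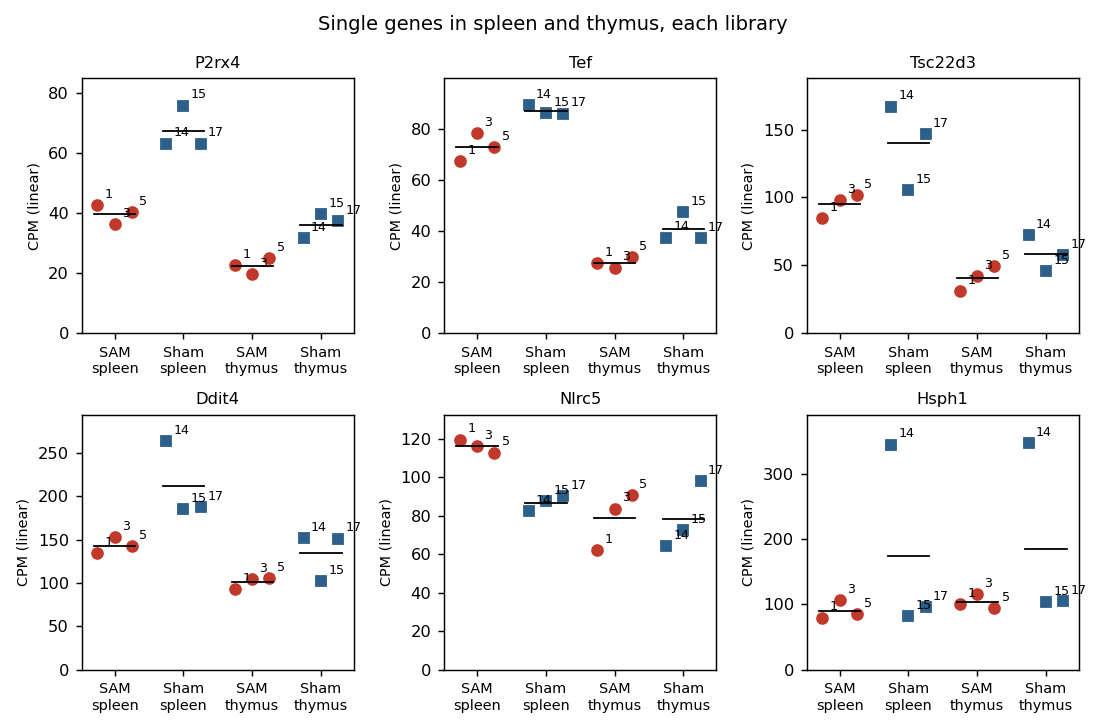
CPM on a linear scale in each spleen and thymus library, numbered as in the labels, with a line at each group's mean; each organ was scaled on its own. P2rx4 and Tef are lower in all SAM libraries in both organs, Nlrc5 is higher in all SAM libraries in spleen and overlaps in thymus, and Hsph1 is high in the library numbered 14 in each organ.

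Whether the difference between SAM and Sham was the same in spleen and thymus, the other lymphoid organ, was tested directly over their 12 libraries. No gene of 15781 tested (0%) passed an adjusted p of 0.05 for the difference of differences with edgeR, and the lowest adjusted p was 0.106. At an unadjusted p under 0.05, 649 genes (4.11%) passed. Without the libraries numbered SAM 5, edgeR called 1 gene, Hap1. DESeq2 called 3 genes, Hyal1, Emp2 and Etv5, whose spleen values lay near 0 while their thymus values did not. Hyal1, a lysosomal hyaluronidase, stood at 0.11 ± 0.13 in spleen and -1.32 ± 0.14 in thymus, a difference of 1.43 ± 0.19. Emp2, an epithelial membrane protein, differed between organs by 0.84 ± 0.15, and Etv5, an ETS factor downstream of growth factor signals, by 1.30 ± 0.24. Fam20c (1.06 ± 0.23) and Olfml2a (1.03 ± 0.22) followed, each lower in SAM in thymus (-0.69 ± 0.16 and -0.81 ± 0.16). In spleen they stood at 0.37 ± 0.16 and 0.22 ± 0.15, with overlapping groups for Olfml2a.

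In the opposite sense, where the log2 fold change of spleen lay below that of thymus, the lowest p belonged to LOC681458 (-1.54 ± 0.35), RGD1562725 (-1.08 ± 0.26), LOC100361259 (-0.55 ± 0.14), Prr36 (-0.67 ± 0.17) and Wt1 (-2.55 ± 0.68). LOC681458, RGD1562725 and LOC100361259 stood at 1.03 ± 0.27, 0.85 ± 0.19 and 0.39 ± 0.10 in thymus. Their spleen values were -0.52 ± 0.22, -0.23 ± 0.18 and -0.15 ± 0.10. Prr36 stood at 0.09 ± 0.09 in thymus and -0.59 ± 0.15 in spleen. Wt1, a transcription factor of mesothelium and of the embryonic spleen, stood at 13.8, 22.8 and 15.4 CPM in SAM spleens and at 29.4, 20.8 and 19.6 CPM in Sham spleens. These groups overlapped (-0.42 ± 0.37), and the summed mesothelium list overlapped as given above. In thymus Wt1 stood at 2.13 ± 0.56 at a low level. Its thymus CPM, scaled over both organs, was 1.62, 1.99 and 3.27 in SAM and 1.19, 0.151 and 0.191 in Sham. For P2rx4 the difference between organs was -0.07 ± 0.16, so this gene's values in spleen and thymus lay within their error of each other. For Parp14 the difference was 0.28 at an unadjusted p of 0.0084, adjusted p 1.0 by edgeR. For Dtx3l it was 0.52 ± 0.12 (unadjusted p = 0.00107, adjusted p = 0.846 by edgeR), with thymus lower in SAM at -0.23 ± 0.09. For Rsad2 it was 0.90 ± 0.33 (edgeR unadjusted p = 0.0184). Mx1, Isg15 and Irf7 differed by 0.16 ± 0.23, 0.28 ± 0.29 and 0.38 ± 0.41. None passed the adjusted test, so these values do not show that the interferon genes differ between the organs.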

How the data were processed

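The authors deposited 1 table of whole-number read counts per gene for 24 libraries, not normalized. STAR 2.2.1 and the genome build rn6 are named in the submitters' processing notes. Per the labels' protocols RNA was column-purified and libraries were stranded and poly(A)-selected. Which program counted reads, whether by strand, and with which annotation, is not given in the sources used here. Overlapping genes and near-identical copies may therefore share reads in ways that were not checked. Columns were matched to samples by organ and number.

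The 6 spleen libraries (13.3 to 20.1 M counts) were fitted alone with edgeR 4.0.16 in R 4.3.3: filterByExpr (minimum count 10, minimum total 15), TMM scaling, quasi-likelihood F test, Benjamini-Hochberg adjustment at 0.05 over 14530 genes. Log2 fold changes are SAM minus Sham with their standard error. DESeq2 1.42.0 and limma-voom (limma 3.58.1) were alternatives, as were other scalings, filters, a fit over all 24 libraries and each library left out. The code was tested on simulated counts. Chi-square over degrees of freedom between libraries of a group was 7.25 to 29.9, so none was taken for a copy of another. The spleen and thymus numbers were not used as pairs, since not every same-numbered pair of libraries deviated together.

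The gene lists (40, with 967 of 1024 symbols in the table) and the genes named were chosen with earlier results of these data known. With no gene called, the naming rule takes the 12 genes higher and 12 lower with the lowest p (symbol, mean of at least 1 CPM, clone names left out), each list's lead members and up to 3 members with the lowest p under 0.05, AhR sentinels and 5 genes per direction of the organ comparison. Of 101 lead members tested, 87 overlapped between groups, at -0.95 to 1.42, and most of these are not named. A list score is the mean log2 CPM (prior count 2) of tested members. Promoter sequences are from RefSeq's GRCr8 table and were matched by symbol. A few genes that the rule names are not reported here.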

Additional observations from a re-analysis of the deposited data

How the results depend on the processing

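With 3 libraries a group, edgeR called 0 spleen genes, as it did under 2 other scalings, 2 other filters, robust estimation and the fit over 24 libraries, and as limma-voom did. DESeq2 called 7, and leaving out 1 library gave 0 to 1. The fit over all 24 libraries took genes at an unadjusted p under 0.05 from 597 to 364; in it the T cell count was 6, the interferon count 3, the B cell count 0 and the clock count 0, while the erythroid count went from 1 to 20. With 1 library left out these counts ran from 1 to 20 (T cell), 5 to 22 (interferon), 3 to 9 (B cell) and 3 to 7 (clock), and the clock median from -0.18 to -0.10. Without both SAM 3 and Sham 14, a choice made after seeing the data, the interferon count was 18 and Spic stood at 0.15. Signs near 0 turned with 1 library left out for Spic (-0.40 to 0.044), Cd163 (-0.0082 to 0.41), Hmox1 (-0.19 to 0.17, and -0.000303 with upper-quartile scaling), Tiparp (-0.065 to 0.0088) and Hsph1 (-1.29 to 0.016). The causes of these changes were not tested. Between spleen and thymus, DESeq2 called 3 genes, and leaving out 1 number gave 0 to 1 with edgeR. With the number as a replicate block edgeR called 0 genes, with 639 at an unadjusted p under 0.05 against 649 without it. Same-numbered libraries correlated at 0.01 to 0.27 in their deviations from group means. Each spleen library was compared only with the thymus libraries of its own group, and 4 of 6 correlated best with their own number. SAM 1 did so narrowly (0.032 against 0.027), and Sham 15 correlated at 0.021 with its own number and 0.171 with another. That is a weak hint from the data and not the design. At these depths genes below about 0.225 raw CPM cannot be told from 0 in every library.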
